A study of Mus musculus with 6 samples.

Results

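Galectins are lectins that bind galactose-containing sugar chains. The mouse galectin genes Lgals1, Lgals2, Lgals3, Lgals4, Lgals7, Lgals8 and Lgals9 were followed in tumours depleted of Bptf and in control tumours. Probe sets were taken where the platform annotation gave exactly 1 gene symbol and that symbol was one of these, which found 10 of the 22690 probe sets on the array. All 7 genes had at least 1 probe set, and all 10 probe sets lay above the filter on dim values (a mean log2 value of 6.09), so that none was left out of the tests over 9249 genes.

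There was 1 array per tumour (n = 3 in each group). The Bptf KD tumours came from cells of the mouse mammary tumour line 4T1, in which short hairpin RNAs delivered by an MMLV retrovirus had knocked down Bptf, the largest subunit of the chromatin remodeller NURF. The Control tumours came from 4T1 cells without this knockdown. In both groups 10000 cells were placed in a mammary fat pad (the fourth) of NSG mice, whose genotype the labels write as Ifrg2r -/-, and tumours were collected on day 21. The sources used here do not give what the Control cells carried, whether the knockdown line was a clone, or the age of the mice. NSG mice have no mature lymphocytes (T, B or natural killer cells), so the cells on which secreted galectins are best known to act were missing in both groups. Of 8 lymphocyte markers with a probe set, 5 lay below the filter. The mean of the other 3 was 6.56 to 6.66 in Bptf KD tumours and 6.69 to 6.88 in Control tumours.

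Galectins have no signal for the usual secretion route, and they act inside cells as well as outside. Prototype galectins (Lgals1, Lgals2, Lgals7) have a single sugar-binding domain and form dimers, the chimeric Lgals3 joins such a domain to a long flexible tail, and tandem-repeat galectins (Lgals4, Lgals8, Lgals9) carry a pair of different domains on 1 chain. Outside the cell they cross-link glycoproteins. In tumours Lgals1, Lgals3 and Lgals9 are studied as brakes on T cells, and inside cells Lgals3 and Lgals8 gather on damaged vesicles. All values given are log2 expression values of the array, and all differences are log2 Bptf KD minus Control. In bulk tumours fewer cells of a type and less RNA per cell cannot be told apart, and levels are compared only within a probe set.

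The tumour labelled Control 2 stood apart. In it 8.67% of the genes tested differed 2-fold or more from the average of Controls 1 and 3, against 0.44% to 2.51% for each other tumour within its own group. Its correlation with those controls across genes was 0.934 and 0.939, against 0.984 to 0.988 among Bptf KD tumours and 0.986 between Controls 1 and 3. Skeletal muscle genes averaged 11.44 there, against 6.29 to 9.21 in the other 5 tumours, and its 3-prime minus 5-prime difference of the Actb control probe sets was 1.23, against 0.76 to 1.05. For the Gapdh control probe sets that difference was 0.06, close to the -0.08 to 0.04 of the other tumours. The targeted gene went against its label: on 3 of the 4 Bptf probe sets the tumour labelled Control 2 lay below every Bptf KD tumour. On the brightest probe set, Bptf was 9.60, 9.56 and 9.99 in Bptf KD tumours and 10.69, 9.77 and 10.59 in Controls 1, 2 and 3 (difference -0.63, limma adjusted p = 0.372). Left without that tumour, the comparison gave -0.92 (limma adjusted p = 0.0296; from 0.00904 to 0.729 over its alternatives). The differences of the galectins are therefore given with and without that tumour, and it is part of the Control group wherever it is not said to be left out.

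None of the galectins passed the threshold. Limma called 0 of 7 genes at an adjusted p under 0.05, where 0.811% of all 9249 genes tested were called (75 genes, 14 higher and 61 lower). An ordinary test without moderated variance also called 0. An unadjusted p under 0.05 was found for 1 galectin, Lgals9, against 13.5% of all genes. Of the 7 genes, 5 had a positive difference, as did 59.6% of all genes, and their median difference was 0.25, beside 0.06 over all genes. Differences ran from -0.44 for Lgals7 to 0.75 for Lgals9.

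**Figure D1:**
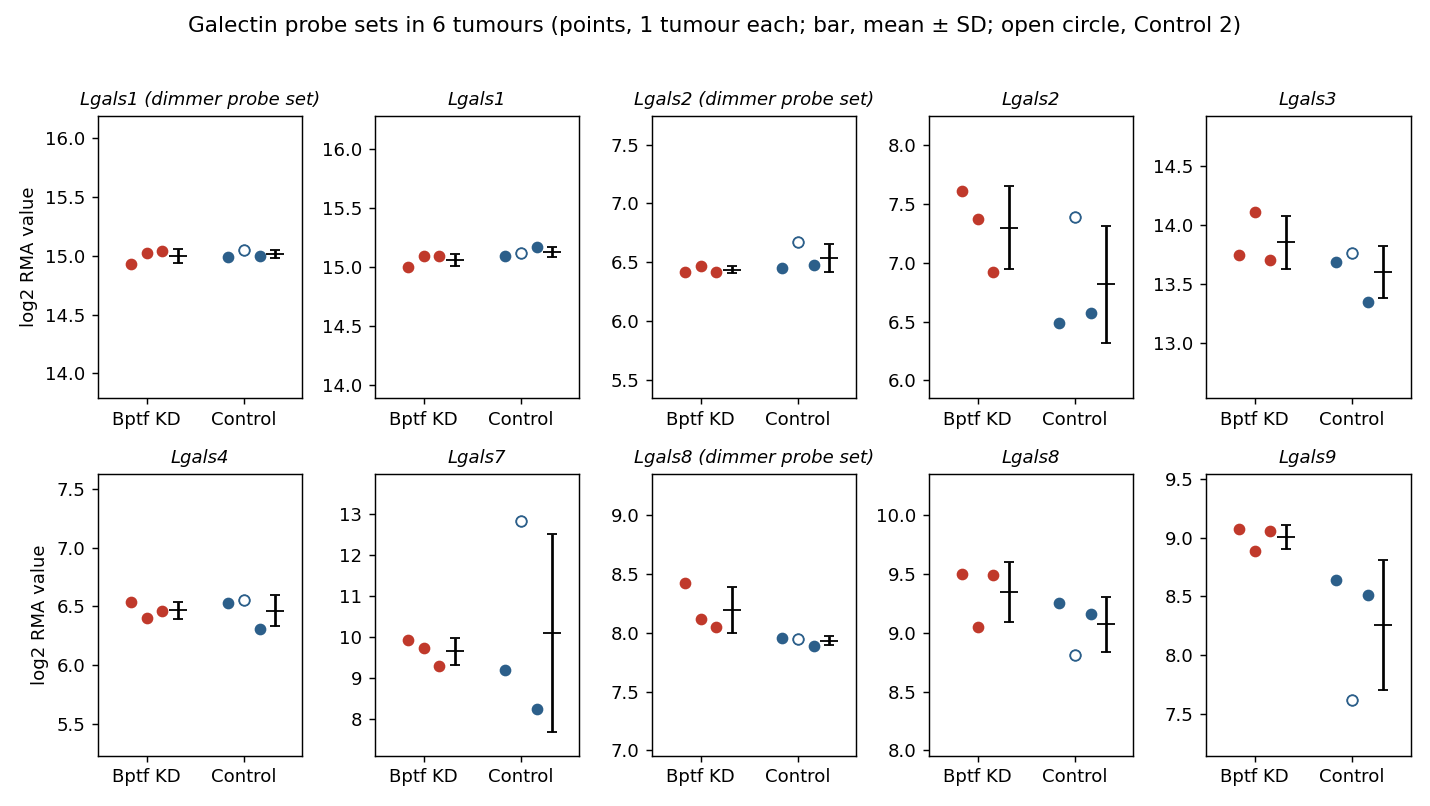
Log2 RMA values (vertical axis) of the 10 galectin probe sets, 1 panel each, in 3 Bptf KD tumours (red) and 3 Control tumours (blue, with the tumour labelled Control 2 as an open circle); bars are mean ± SD. Lgals7 spans 4.58 log2 units with Control 2 highest, Lgals9 is lowest in Control 2 and higher in every Bptf KD tumour than in every Control tumour, and Lgals1 stays within 0.17.

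Among the tandem-repeat galectins, Lgals9 had the largest difference of the 7 genes. Lgals9 is bound by the inhibitory receptor Tim-3 (Havcr2), among others, and interferon raises its expression in several cell types. Its only probe set (1421217_a_at) read 9.07, 8.89 and 9.06 in Bptf KD tumours and 8.64, 7.62 and 8.51 in Controls 1, 2 and 3. The groups did not overlap, a pattern found in 20% of all genes tested, and the lowest value by far was that of the tumour labelled Control 2. The means were 9.01 ± 0.10 in Bptf KD tumours and 8.26 ± 0.56 in Control tumours (SD, n = 3 each), a 1.68-fold higher level with a difference of 0.75 (SE 0.27, 95% interval 0.11 to 1.39). The difference did not pass (limma adjusted p = 0.310, unadjusted p = 0.0278). An exact two-sided permutation test gave p = 0.1, the smallest that 3 tumours against 3 allow.

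Leaving out the tumour labelled Control 2 lowered the Lgals9 difference to 0.43 (95% interval 0.15 to 0.71), which again did not pass (limma adjusted p = 0.0808). Leaving out another tumour gave 0.72 to 0.94. The size of the Lgals9 difference thus moved by over 1.5 times with that tumour, while the sign stayed positive in all 18 alternatives (limma adjusted p from 0.0258 to 0.678). It passed in 1 of them, array weights (difference 0.52), where 18.2% of all genes passed, limma reported no convergence, and Control 2 had a weight of 0.15 beside 4.00 for Control 3.

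**Figure D2:**
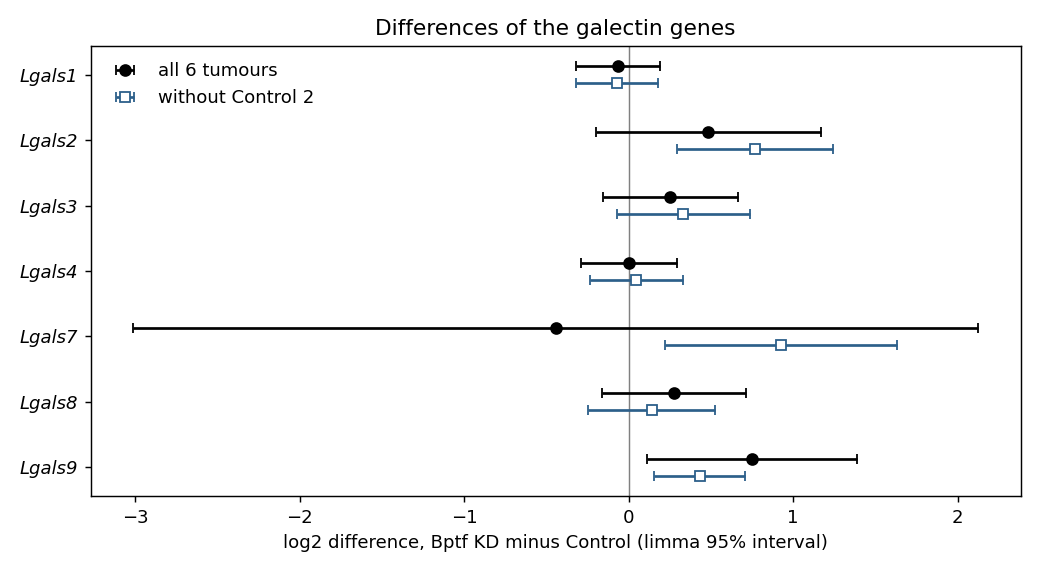
Log2 difference of each galectin gene, Bptf KD minus Control (horizontal axis), with limma's 95% interval, over all 6 tumours (filled) and without the tumour labelled Control 2 (open). Lgals7 is at 0.93 without that tumour and at -0.44 with it, and Lgals9 is at 0.43 without it and at 0.75 with it. The intervals of Lgals1, Lgals3, Lgals4 and Lgals8 hold 0 in both.

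Because Lgals9 is known to answer to interferon, its promoter is shown. It is the RefSeq sequence of GRCm38.p6, minus strand, chr11:78984875-78985174, from 250 bases before the annotated start to 50 after it. Capitals mark GAAANNGAAA, the core of the interferon-stimulated response element, searched on both strands and found here on the opposite strand.

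Lgals9: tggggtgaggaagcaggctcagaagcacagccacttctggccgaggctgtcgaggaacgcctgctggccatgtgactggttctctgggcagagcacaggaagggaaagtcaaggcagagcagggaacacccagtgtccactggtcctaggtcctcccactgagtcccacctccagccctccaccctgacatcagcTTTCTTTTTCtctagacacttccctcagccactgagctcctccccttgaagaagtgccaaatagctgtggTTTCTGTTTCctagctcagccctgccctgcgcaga

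The Lgals9 window holds 2 matches, which start at -55 and at 15 relative to the annotated start and do not overlap. Promoters of 6 of the 7 galectins were matched by symbol, all but Lgals1, and Lgals9 alone of these 6 holds the motif. It occurs in 3.44% of the 32851 promoters of the same length in the RefSeq table, in 291 of 7461 genes tested here with a promoter (3.9%), and in 11 of 20 genes of the interferon-responsive list. Of the list genes named below (Usp18, Psmb9, Psmb8 and Bst2), only Bst2 gave a match. Bst2 is an interferon-responsive protein that tethers budding viruses. For comparison, a stretch of its promoter is shown (GRCm38.p6, minus strand, chr8:71537585-71537610), with 1 of its 2 overlapping matches in capitals.

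Lgals9, match at -55: acatcagcTTTCTTTTTCtctagaca
Lgals9, match at 15: agctgtggTTTCTGTTTCctagctca
Bst2, match at -130: cattccagGAAAATGAAActgaaagg

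These letters describe the window and do not show that a factor binds there. Of 23 interferon-responsive genes tested, limma called 0, and 11 had a positive difference at an unadjusted p under 0.05 (7.65% of all genes in that direction), with a median difference of 0.50 and 22 positive. The earlier results of these data already showed that list as higher, so its direction is no independent evidence. Its members with the smallest p were Usp18, which removes Isg15 from proteins (1.00, limma adjusted p = 0.0591), the immunoproteasome subunits Psmb9 (0.94) and Psmb8 (0.71), and Bst2 (0.94). Without the tumour labelled Control 2, in which each of these 4 had its highest control level, all 4 passed. They were the only ones of the 23 called there, where 4.4% of all genes were called. These 4 had been named for their small p in the same data.

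Lgals9 did not follow the mean of the interferon list in every tumour. The list averaged 9.48 to 9.56 in Bptf KD tumours and 8.81 to 9.20 in Control tumours, with the tumour labelled Control 2 between Controls 1 and 3. In the tumour labelled Control 2 the list genes differed from Controls 1 and 3 by a median of 0.03. Lgals9 was lower there by a difference of -0.96. Single list genes went either way: in Controls 1, 2 and 3 Oasl2 read 8.52, 7.12 and 8.19, and Ifit1 8.99, 9.54 and 8.36. A drop in that tumour was thus found within the list as well. Oasl2 and Ifit1 were picked with their values known. The genes whose centred profile over the 6 tumours was most like that of Lgals9 were Zkscan1, Bbs2 and Foxo1, with root mean square differences of 0.05, 0.09 and 0.11, where Lgals9 itself varied by 0.50 around its mean. These 3 were picked by their values in the same 6 tumours, so their low level in Control 2 and their differences follow from that choice. All 3 were lowest in the tumour labelled Control 2: Zkscan1 was at 8.29 there, Bbs2 at 6.22 and Foxo1 at 8.05. Their differences between the groups, 0.77, 0.61 and 0.67, did not pass (limma adjusted p from 0.287 to 0.347). Without that tumour they were 0.47, 0.33 and 0.43, and 0 of the 3 passed.

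**Figure D3:**
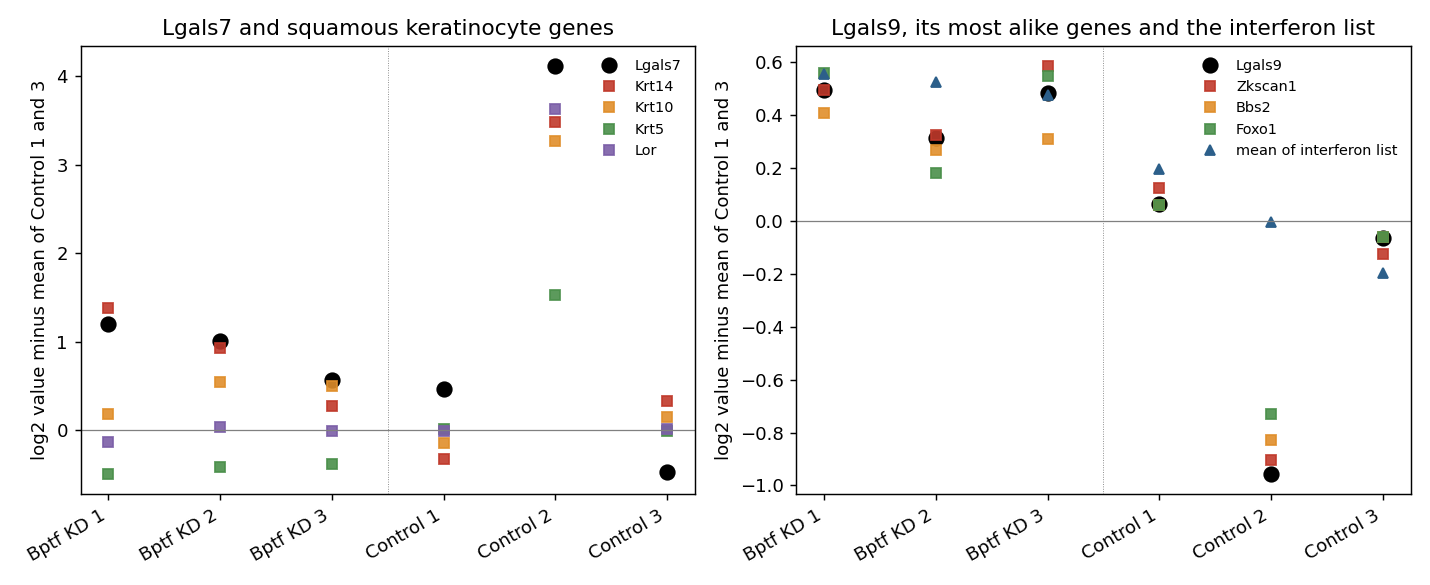
Log2 values minus the mean of Controls 1 and 3 (vertical axis) in the 6 tumours. Left, Lgals7 with 4 squamous keratinocyte genes: all 5 peak in the tumour labelled Control 2, Lgals7 by 4.11. Right, Lgals9 with its 3 most alike genes and the mean of the interferon-responsive list: the 4 genes drop in that tumour, Lgals9 by -0.96, while the list mean lies between those of Controls 1 and 3.

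Lgals8, which senses sugars exposed on damaged vesicles, had a pair of probe sets with similar differences. The brighter (1422662_at) read 9.50, 9.05 and 9.49 in Bptf KD tumours and 9.25, 8.81 and 9.16 in Control tumours, with groups that overlapped. The dimmer (1422661_at) read 8.42, 8.12 and 8.05 in Bptf KD tumours and 7.96, 7.95 and 7.89 in Control tumours, with groups that did not overlap. The differences were 0.27 (95% interval -0.16 to 0.71, limma adjusted p = 0.604) and 0.26 (95% interval -0.06 to 0.58, limma adjusted p = 0.491 over 15826 probe sets, of which 0.253% were called), and neither passed. The brighter probe set gave 0.14 without the tumour labelled Control 2, in which it was lowest, and 0.42 without Bptf KD 2. The dimmer gave 0.27 without the tumour labelled Control 2 and 0.15 without Bptf KD 1.

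Lgals4, a galectin of the intestinal epithelium, was dim and flat. Its probe set (1451336_at) read 6.54, 6.40 and 6.46 in Bptf KD tumours and 6.53, 6.55 and 6.31 in Control tumours. The difference was 0.003 (95% interval -0.29 to 0.29, limma adjusted p = 0.995), and its sign changed in 3 alternatives. It was 0.05 without the tumour labelled Control 2. All 8 markers of intestinal epithelium, among them Vil1, Cdx1 and Cdx2, lay below the filter in these tumours. How much of the level of a dim probe set is background is not known, since RMA values carry no detection call.

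Lgals3, the chimeric galectin abundant in macrophages and in many carcinomas, was bright in all tumours. It read 13.75, 14.11 and 13.70 in Bptf KD tumours and 13.69, 13.76 and 13.35 in Control tumours (1426808_at). The means were 13.85 ± 0.22 in Bptf KD tumours and 13.60 ± 0.22 in Control tumours (SD, n = 3 each), and the groups overlapped. The difference of 0.25 (SE 0.17, 95% interval -0.16 to 0.66) did not pass (limma adjusted p = 0.608, exact two-sided permutation p = 0.4). It was positive in all 18 alternatives. It was 0.33 without the tumour labelled Control 2, but 0.13 without Control 3 and likewise 0.13 without Bptf KD 2. Macrophage markers (11 tested) averaged 12.16 to 12.42 in Bptf KD tumours and 11.98 to 12.32 in Control tumours, and their part in the level of Lgals3 was not tested.

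Of the prototype galectins, Lgals7 varied most from tumour to tumour. Lgals7 is a galectin of stratified epithelia such as the epidermis, and it is induced by p53. Its probe set (1422308_a_at) read 9.92, 9.73 and 9.29 in Bptf KD tumours and 9.19, 12.83 and 8.25 in Controls 1, 2 and 3. The tumour labelled Control 2 lay 4.11 above the mean of Controls 1 and 3, and every Bptf KD tumour lay above both of those. The means were 9.65 ± 0.32 in Bptf KD tumours and 10.09 ± 2.42 in Control tumours (SD, n = 3 each). The difference of -0.44 (SE 1.08, 95% interval -3.01 to 2.13) did not pass (limma adjusted p = 0.904).

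Without the tumour labelled Control 2 the sign of Lgals7 turned, to a difference of 0.93 (SE 0.30, 95% interval 0.22 to 1.63), which did not pass either (limma adjusted p = 0.112). That comparison sets 3 tumours against 2. Of the 7 galectins, 4 had Bptf KD levels wholly above the controls in it, against 27.7% of all genes (46.5% without overlap in either direction), 3 had an unadjusted p under 0.05 with a positive difference (16.1% of all genes), and 0 were called by limma (4.4% of all genes). The direction of Lgals7 between the groups thus depended on 1 tumour.

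Several squamous keratinocyte genes stood out in the same tumour as Lgals7. Others did not: Perp was at 10.80 there, below Bptf KD 2 and 3 (11.15 and 11.19), and Ivl at 5.79, as in Bptf KD 3. The basal keratin Krt14 read 9.21, 8.76 and 8.11 in Bptf KD tumours and 7.51, 11.32 and 8.16 in Controls 1, 2 and 3. The suprabasal keratin Krt10 was 3.26 and the cornified envelope protein Lor 3.63 above Controls 1 and 3 in the tumour labelled Control 2. Krt1, which lay below the filter and was not tested, was at 10.10 there and at 4.32 to 4.60 in the other tumours. The 7 squamous markers tested, of 12 with a probe set, averaged 7.71 to 7.79 in Bptf KD tumours, and 7.35, 9.50 and 7.64 in Controls 1, 2 and 3. Epithelial markers (13 tested) averaged 10.38 to 10.55 in Bptf KD tumours and 9.35 to 10.14 in Control tumours, with 0 called. The part of these cells in the level of Lgals7 was not tested. Krt14, Krt10, Lor, Krt1, Perp and Ivl, and Krt5 in the plot of profiles, were picked with their values known.

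By the profile rule the genes most like Lgals7 were Thbs4, Tmod4 and Ly6d, with root mean square differences of 0.25, 0.48 and 0.51, against 1.43 for Lgals7 around its own mean. A peak in the tumour labelled Control 2 follows from this rule, which uses the values of the same tumours. Thbs4, a matrix thrombospondin of tendon and muscle, was at 9.86 in that tumour and at 5.56 to 6.81 elsewhere. Tmod4, a tropomodulin of skeletal muscle, was at 9.85 there, and Ly6d, a surface protein of keratinocytes and early B cells, at 10.04.

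Lgals2, a prototype galectin known from the gut, gave readings that depended on the probe set. The brighter (1417079_s_at) read 7.61, 7.37 and 6.92 in Bptf KD tumours and 6.49, 7.39 and 6.57 in Controls 1, 2 and 3, so that the tumour labelled Control 2 lay among the Bptf KD tumours. The dimmer (1417078_at) read 6.42, 6.47 and 6.42 in Bptf KD tumours and 6.45, 6.67 and 6.48 in Control tumours. Their differences were 0.48 (95% interval -0.20 to 1.17, limma adjusted p = 0.547) and -0.10 (95% interval -0.37 to 0.17, limma adjusted p = 0.806), with opposite signs. Without the tumour labelled Control 2 they were 0.77 (limma adjusted p = 0.0764) and -0.03, and without Control 1 the brighter gave 0.32. The mean of the pair over all tumours differed by 0.19. Only with array weights did Lgals2 pass (0.78, limma adjusted p = 0.0257), on the brighter probe set.

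The genes most like the brighter Lgals2 probe set were the aldo-keto reductase Akr1e1, the acyl-CoA thioesterase Acot13 and the kallikrein protease Klk8, at root mean square differences of 0.09, 0.10 and 0.12 against 0.43 for Lgals2 itself. Since they were picked by their values in the same tumours, their likeness to Lgals2 and their differences follow from that choice. Akr1e1 was high in the Bptf KD tumours (9.23, 9.15 and 8.71) and in the tumour labelled Control 2 (9.19). It was lower in Controls 1 and 3 (8.33 and 8.20). The differences of Akr1e1, Acot13 and Klk8 were 0.46, 0.39 and 0.60, and 0 of the 3 passed (limma adjusted p from 0.428 to 0.615). With that tumour left out they were 0.77, 0.67 and 0.85, and again 0 passed.

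Lgals1, the prototype galectin made by many mesenchymal and tumour cells, read at the top of the scale. Its brighter probe set (1455439_a_at) read 15.00, 15.09 and 15.09 in Bptf KD tumours and 15.09, 15.12 and 15.17 in Control tumours. On the arrays of the Control tumours it was the highest value of all, and in Bptf KD tumours it was within 0.08 of the highest. The other probe set (1419573_a_at) read 14.93, 15.02 and 15.04 in Bptf KD tumours and 14.99, 15.05 and 15.00 in Control tumours. The differences were -0.07 (95% interval -0.32 to 0.19, limma adjusted p = 0.843) and -0.02 (95% interval -0.26 to 0.23, limma adjusted p = 0.972). They were -0.07 and 0.002 without the tumour labelled Control 2, and over all tumours left out the brighter ran from -0.085 to -0.037. Quantile normalisation, a step of RMA, sets the highest values of all arrays close to each other, which bounds the differences that can be read for Lgals1. Fibroblast and matrix markers averaged 10.25 to 10.50 in Bptf KD tumours and 11.31 to 11.60 in Control tumours, with 6 of 15 called lower (0.66% of all genes), and their part in the level of Lgals1 was not tested.

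The galectin fold is shared by a few relatives, of which Lgals12 and Lgalsl had probe sets. Lgalsl, a galectin-related protein, read 10.45, 10.35 and 10.25 in Bptf KD tumours and 10.28, 10.94 and 10.62 in Control tumours, a difference of -0.26 that did not pass (limma adjusted p = 0.619), and its other probe set gave 0.06. They were -0.10 and 0.21 without the tumour labelled Control 2, and the first was -0.43 without Control 1. Lgals12, a galectin of fat cells, lay below the filter on both probe sets and was not tested. The dimmer read 4.04, 3.90 and 4.29 in Bptf KD tumours and 5.20, 5.26 and 4.83 in Control tumours, without overlap, and the brighter 5.96, 5.45 and 5.68 in Bptf KD tumours and 5.69, 5.93 and 5.67 in Control tumours, with overlap. Their differences were -1.02 and -0.07, and without the tumour labelled Control 2 they were -0.94 and 0.02. Adipocyte markers averaged 6.84 to 7.91 in Bptf KD tumours and 9.96 to 10.86 in Control tumours, with 7 of 10 called lower (0.66% of all genes), and their part in Lgals12 was not tested.

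What galectins bind is set by the enzymes that build and cap sugar chains. Of 20 tested enzymes and transporters that branch N-glycans or build galactose-containing chains, limma called 0. At an unadjusted p under 0.05, 2 were higher (7.65% of all genes) and 1 was lower (5.82% of all genes), and the median difference was 0.15 with 17 positive. C1galt1, which adds the galactose of core 1 O-glycans, read 9.46, 9.32 and 9.22 in Bptf KD tumours and 8.53, 9.02 and 8.50 in Control tumours. Its groups did not overlap and its difference of 0.65 did not pass with all tumours (limma adjusted p = 0.181). Without the tumour labelled Control 2, its highest control, C1galt1 differed by 0.82 (limma adjusted p = 0.0211, and from 0.00329 to 0.509 over its alternatives). It was the only 1 of the 20 called there, a share near that of all genes (4.4%). C1galt1 had been named for its small p in the same data. These values are of its brightest probe set, and the mean of its probe sets over all tumours differed by 0.48 (limma adjusted p = 0.308). B3gnt2, which extends poly-N-acetyllactosamine, differed by 0.36, the galactosyltransferase B4galt3 by 0.34 and the mannosidase Man2a1 by -0.46 (limma adjusted p from 0.300 to 0.483). B4galt3 differed by 0.17 without the tumour labelled Control 2. Man2a1 was lower in every Bptf KD tumour (10.26, 9.93 and 10.31) than in every Control tumour (10.72, 10.40 and 10.77), as were 8.17% of all genes. Mgat5, the branching enzyme best known for making Lgals3 ligands, lay below the filter, at 4.74 to 4.92 in Bptf KD tumours and 4.76 to 4.85 in Control tumours.

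Enzymes of sialylation, which can cap galactose and change galectin binding, had a median difference of 0.30, with 8 of 9 positive. Over all genes, 59.6% were positive. Limma called 0 of the 9, while 4 had an unadjusted p under 0.05, all in the positive direction (7.65% of all genes). St6gal1, whose alpha2,6 linkage blocks most galectins, read 10.71, 11.01 and 10.88 in Bptf KD tumours and 10.58, 10.41 and 10.47 in Control tumours. The Bptf KD tumours were all above the Control tumours, by a mean of 0.38 (95% interval 0.08 to 0.69) that did not pass (limma adjusted p = 0.276). The mean of the St6gal1 probe sets differed by 0.26. St3gal1 differed by 0.49, St3gal3 by 0.37 and St3gal5 by 0.35, also without overlap between the groups and without passing (limma adjusted p from 0.286 to 0.342). Groups without overlap and higher in Bptf KD tumours were found in 11.8% of all genes. Without the tumour labelled Control 2 the 4 differences lay between 0.34 and 0.56 and 0 passed.

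Of 22 tested galectin partners and genes of the vesicle damage response, limma called 0. An unadjusted p under 0.05 was found for 1 higher gene (7.65% of all genes) and 2 lower genes (5.82% of all genes), shares near those of all genes, and the median difference was 0.03. Havcr2, the receptor of Lgals9 named above, differed by 0.28 (limma adjusted p = 0.845). It read 7.17, 6.27 and 7.84 in Bptf KD tumours and 7.06, 6.13 and 7.26 in Controls 1, 2 and 3. Its lowest value was that of the tumour labelled Control 2, while Controls 1 and 3 lay within the range of the Bptf KD tumours. Lrp1, an endocytic receptor, differed by -0.52, Tnfrsf9, a costimulatory receptor bound by Lgals9, by -0.29, the adhesion molecule Mcam by 0.32 and the receptor Cd40 by 0.31 (limma adjusted p from 0.210 to 0.383). Lgals3bp, a secreted glycoprotein bound by Lgals3, read 9.19, 9.16 and 9.43 in Bptf KD tumours and 9.81, 8.18 and 9.51 in Controls 1, 2 and 3. Like Lgals9 it was lowest in the tumour labelled Control 2, with a difference of -1.48 from the mean of the other controls, and its difference of 0.09 turned to -0.40 without that tumour. Havcr2 and Lgals3bp were picked with their values known.

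**Figure D4:**
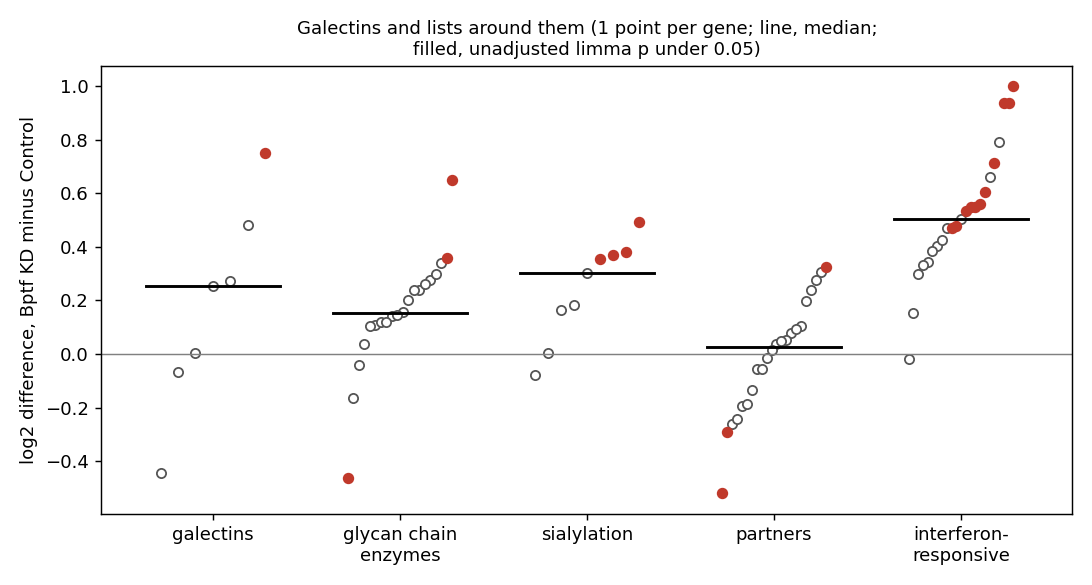
Log2 difference, Bptf KD minus Control (vertical axis), of each gene tested among the 7 galectins, 20 enzymes of glycan chains, 9 genes of sialylation, 22 partners and 23 interferon-responsive genes; lines are medians and filled points have an unadjusted limma p under 0.05. Medians are 0.25, 0.15, 0.30, 0.03 and 0.50, beside 0.06 over all genes, and 0 genes of these lists were called over all genes.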

How the data were processed

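RNA of 6 tumours was hybridised to Affymetrix arrays, from 500 ng of total RNA each, per the labels. The deposited log2 values were made by the authors with RMA (background correction, quantile normalisation, probe set summary), per the submitters' processing notes (no version given). Base 2 was inferred from the range of 2.98 to 15.17. The number of arrays limits the precision, and arrays have no sequencing depth. Platform annotation named 1 gene for 20393 probe sets, several for 691 and none for 1606. Symbols were checked by Entrez identifier against RefSeq (GRCm38.p6), which matched 20364 and changed 0.

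The brightest probe set stood for a gene, and those in the lowest 30% of mean values were left out. Bptf KD was compared with Control in limma 3.58.1 (R 4.3.3; lmFit, eBayes, no covariate) over 9249 genes, with Benjamini-Hochberg adjustment and a threshold of 0.05; probe sets of a galectin were also fitted over 15826 probe sets. All adjusted p-values are from limma. Single values had an exact two-sided permutation test. On simulated data of 9249 genes, 58.8% of changes of 1 log2 unit and 90.6% of changes of 2 were called, with 5.84% false calls. The simulation drew each gene independently, with the same spread on every array. It thus held no tumour that stands apart as Control 2 does, and its shares need not hold for these data. Members and lists were chosen with earlier results of these data known. Beside the members and Bptf, the text names up to 4 genes with the smallest p of the lists around galectins (relatives, glycan chains, sialylation, partners, interferon), those called, and the 3 genes most alike in profile for members that span at least 1 log2 unit; others were picked with their values known. The labels call the tumours biological triplicates and name no batch.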

Additional observations from a re-analysis of the deposited data

How the results depend on the processing

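The count of 0 galectins called held in all alternatives except array weights, which called 2 genes (Lgals2 and Lgals9) and likewise 2 galectin probe sets. Over all genes 75 were called. A filter at the lowest 50%, which removes Lgals2 and Lgals4, left 42, an ordinary test 1, array weights 1680 and a covariate for muscle genes 49. Leaving out each tumour gave 0 (Bptf KD 3) to 406 (the tumour labelled Control 2), with 10 for Control 3, 2 for Bptf KD 1 and 6 for Bptf KD 2. The lists around the galectins, whose alternatives were picked with the data seen, had 0 genes called at first. With array weights, where 18.2% of all genes were called, the calls were 4 of 20 for glycan chains and 3 of 9 for sialylation. They were 3 of 22 for partners and 17 of 23 for the interferon list. Leaving out each tumour gave 0 to 1 for glycan chains and 0 to 4 for the interferon list. Both were highest without the tumour labelled Control 2, where 4.4% of all genes were called.

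Lgals7 turned to 1.16 with array weights, 0.46 with the muscle covariate and 0.93 without the tumour labelled Control 2 (from -1.36 to 0.93 over the tumours left out). Its most alike genes turned too, though not all of them in every one of these settings. As they were picked for a profile like that of Lgals7 in the same tumours, such turns are no separate evidence. Thbs4 gave 0.75 and 0.16 in the first 2 of these settings and -1.52 to 0.63 over the tumours left out. Tmod4 gave 0.74 with array weights and -2.00 to 0.24 over the tumours left out, and Ly6d 0.10 and -1.58 to 0.15. With the muscle covariate these 2 genes kept their negative sign, Tmod4 at -0.04 and Ly6d at -0.26. Lgals4 turned to -0.01 with median centring, and over the tumours left out it ran from -0.073 to 0.047, with -0.033 without Bptf KD 1. The dimmer Lgals1 probe set ran from -0.038 to 0.017 over the tumours left out, with 0.002 without the tumour labelled Control 2. The cause of these changes was not tested. Lgals1 and Lgals2 (brighter probe sets), Lgals3, Lgals8 and Lgals9 kept their sign in every alternative that could be run. The dimmer Lgals2 probe set kept the opposite sign, negative in all 14 of its alternatives (from -0.138 to -0.028).

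Whether the replicate numbers in the titles pair the tumours could not be settled, since deviations within a group of 3 depend on each other. Same-numbered tumours correlated at 0.006, 0.279 and 0.372 in their deviations from the group means. The best correlation with another number was 0.108, -0.144 and 0.353. Bptf KD 2 and 3 thus correlated best with the Control of their own number, and Bptf KD 1 did not. With the replicate number as a block 107 genes were called, 0 galectins (Lgals9 at an adjusted p of 0.179 from limma) and 1 interferon-responsive gene.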
